A study of Homo sapiens with 6 samples.

Results

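Interferon-stimulated genes were followed in SW480 cells with lowered ALDH1B1. The set holds 39 named genes, found by their symbol, and 37 of them had a row of that symbol among the 22258 symbols of the table; XAF1 and IFI44 are not analysed here. SW480 is a human colon cancer cell line, and ALDH1B1 is a mitochondrial aldehyde dehydrogenase. Total RNA was sequenced from 3 samples with the genotype ALDH1B1 KD (knockdown) and 3 samples with the genotype WT (control, named SCR in the table), each numbered 4, 5 and 6, with no treatment in either group. The sources used here do not give how the knockdown was made, whether the cells are a clone or a pool, or whether the replicates are separate cultures. The p-values therefore measure the spread between samples alone, and that spread may be technical.

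Interferons are secreted proteins that cells release when they sense foreign nucleic acid. They bind paired receptors whose kinases, JAK1, JAK2 and TYK2, phosphorylate STAT proteins. STAT2 and IRF9 belong to the complex ISGF3, which binds the interferon-stimulated response element (ISRE) in promoters and switches on genes that block viral entry, degrade RNA, stop translation or attach ubiquitin-like proteins. Many epithelial and tumour cells hold a low, steady level of these transcripts without any added interferon, and other STAT complexes bind another element, GAS.

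The promoters of the set held the ISRE letters more often than promoters at large. The set was chosen as genes that interferon switches on, in part through this element. The higher share is therefore a description and not a test. RefSeq promoter windows (GRCh38.p14, from 250 bases before to 50 after the transcription start) were matched for 26 of the 37 genes. The ISRE letters searched, GAAA, any 2 bases and GAAA again, on both strands, stood in 18 of these 26 (69.2%) and in 1255 of all 35116 windows of the same length (3.57%). The letters of a GAS element, TTC, any 3 bases and GAA, stood in 8 of 26 (30.8%) and in 7.66% of all windows. A match is a description of the letters and not a binding site, and RefSeq can place the start of a gene elsewhere than these cells do. The promoters below are shown because the same element stands in front of genes that went opposite ways. Each runs from 150 bases before the start to 10 after it, 5′ to 3′ on the gene's strand, with ISRE matches on either strand in capitals. The genes that rose come at the top, from GRCh38.p14 positions chr15:88638866-88639025 (plus strand), chr14:94110586-94110745 (plus), chr1:27672183-27672342 (minus) and chr2:37156971-37157130 (minus).
ISG20: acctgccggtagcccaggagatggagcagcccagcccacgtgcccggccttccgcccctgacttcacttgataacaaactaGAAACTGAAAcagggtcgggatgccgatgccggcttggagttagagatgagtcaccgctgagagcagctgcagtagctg
IFI27: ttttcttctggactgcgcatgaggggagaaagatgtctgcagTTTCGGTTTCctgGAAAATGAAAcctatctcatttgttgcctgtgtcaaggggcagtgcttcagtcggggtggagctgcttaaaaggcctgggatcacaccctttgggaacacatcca
IFI6: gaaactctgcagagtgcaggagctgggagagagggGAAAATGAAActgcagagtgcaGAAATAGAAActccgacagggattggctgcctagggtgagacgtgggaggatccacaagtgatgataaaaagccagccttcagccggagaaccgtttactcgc
EIF2AK2: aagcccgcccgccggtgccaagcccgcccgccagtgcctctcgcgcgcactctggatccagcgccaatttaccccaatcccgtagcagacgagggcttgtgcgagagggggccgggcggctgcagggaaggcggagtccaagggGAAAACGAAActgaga
The genes that fell follow, from chr11:313890-314049 (plus), chr1:1013347-1013506 (plus) and chr3:122564188-122564347 (plus).
IFITM1: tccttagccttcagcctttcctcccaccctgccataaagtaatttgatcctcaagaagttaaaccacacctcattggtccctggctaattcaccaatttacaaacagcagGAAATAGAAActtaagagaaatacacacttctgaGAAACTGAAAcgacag
ISG15: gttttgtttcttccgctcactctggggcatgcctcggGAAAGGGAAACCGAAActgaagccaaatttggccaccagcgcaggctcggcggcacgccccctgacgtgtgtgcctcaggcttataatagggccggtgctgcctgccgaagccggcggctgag
DTX3L: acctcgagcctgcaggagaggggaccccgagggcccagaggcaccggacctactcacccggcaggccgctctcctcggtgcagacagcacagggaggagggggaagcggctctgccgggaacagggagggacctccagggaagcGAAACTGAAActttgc
The remaining promoters belong to genes that passed in neither direction, from chr11:320851-321010 (minus), chr10:89392473-89392632 (plus) and chr19:17405621-17405780 (minus).
IFITM3: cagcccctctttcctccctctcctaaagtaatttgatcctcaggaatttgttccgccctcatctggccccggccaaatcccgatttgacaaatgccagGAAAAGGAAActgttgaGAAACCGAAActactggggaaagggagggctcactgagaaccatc
IFIT1: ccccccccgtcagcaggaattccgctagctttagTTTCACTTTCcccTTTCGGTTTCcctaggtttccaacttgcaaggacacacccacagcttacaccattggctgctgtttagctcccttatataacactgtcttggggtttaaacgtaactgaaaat
BST2: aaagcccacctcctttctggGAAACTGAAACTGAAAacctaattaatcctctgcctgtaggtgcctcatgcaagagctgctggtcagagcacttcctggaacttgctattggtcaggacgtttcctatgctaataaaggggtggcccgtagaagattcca
The element was found in 5 of 6 matched promoters of genes that rose, in 3 of 4 of genes that fell and in 9 of 15 of genes that passed in neither direction. In IFI27 and IFIT1 a pair of matches lay close together, beginning 108 and 95 bases before the start in IFI27 and 116 and 103 bases before it in IFIT1. In BST2 and ISG15 the matches overlapped, and IFI6 has a further match upstream of the stretch shown. In MX1 the single match began 11 bases after the start and so lies outside the stretch that would be shown. No ISRE match was found in the windows of STAT2, which rose, and IFI35, which fell. This says only that the ISRE letters are not in those windows.

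Levels are given as RPM, a read count scaled to the depth of its sample, which was 20360000 to 28580000 reads. ALDH1B1 itself, which checks the labels, had 34.1, 39.6 and 36.7 RPM in control replicates 4, 5 and 6 and 19.99, 20.4 and 23.2 RPM in the knockdown, which is 57.6% of the control level; it fell by 0.80 on the log2 scale (SE 0.0925, limma adjusted p = 4.50e-07). Across the transcriptome 6548 of 16351 tested genes changed. Control replicate 6 had the lowest value of the 6 samples for 38.5% of all tested genes and for 19 of the 34 tested members (55.9%). Of the colon epithelial markers listed, 10 of 12 had values, with a summed level of 5433 to 5689 RPM in the control and 5830 to 6143 in the knockdown, most of it from the keratins KRT8, KRT18 and KRT19; KRT20, LGALS4 and GPA33 were near the level of a few reads. The smaller epithelial markers moved: CDH1 rose by 1.98, VIL1 by 1.90 and EPCAM by 0.90 on the log2 scale, and CDX2 fell by 0.76. Leukocyte markers had values for 8 of 14, with sums of 27.2 to 35.4 RPM in the control and 49.7 to 51.9 in the knockdown, most of it from NCAM1 and CORO1A, and none was at 0 in all samples. Fibroblast markers (3 of 9 with values) summed to 4.18 to 5.74 and 5.37 to 7.03 RPM, endothelial markers (3 of 7) to 1.78 to 1.94 and 1.57 to 1.72, and plasmacytoid dendritic cell markers (4 of 6) to 3.27 to 3.91 and 1.67 to 2.33. The part of such cells in the results was not tested, and in bulk RNA fewer cells of a type and less RNA per cell cannot be told apart.

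Interferon-stimulated genes did not move as a block. Of the 34 members with a mean of at least 0.491 RPM (the value of 10 reads in the library with the fewest reads in listed genes), 6 rose (IFI27, ISG20, MX1, IFI6, STAT2 and EIF2AK2) and 4 fell (IFITM1, DTX3L, IFI35 and ISG15), by limma with an adjusted p under 0.05. The share that changed, 10 of 34 (29.4%), stands beside 40.0% of all genes tested; 17.6% of members rose against 21.9% of all genes, and 11.8% fell against 18.1%. The median log2 fold change was 0.06 over the members and 0.01 over all genes, and the median size without regard to sign was 0.20 over the members and 0.25 over all. The knockdown lay above every control for 7 members and below every control for 7, 14 of 34 in all, against 50.0% of all genes. Only IFI27 changed by at least 1 log2 unit, a size reached by 6.42% of all genes. With each sample rescaled to its reads outside mitochondrially encoded genes, a setting chosen after the data were seen, 10 members rose and 3 fell; IFITM2, IRF1, IRF3 and PARP14 joined the rises and IFI35 left the falls. Under the same rescaling the rises among all genes also went up, from 3588 to 4643, and the falls went from 2960 to 2885. Leaving out control replicate 6 gave 6 rises and 5 falls, with OAS2 added, while leaving out any other sample left 2 falls, IFITM1 and DTX3L. Among all genes the falls numbered 3719 without control replicate 6 and 2018 to 2802 without any other sample. The summed RPM of the 37 members was 873, 887 and 775 in control replicates 4, 5 and 6 and 863, 860 and 916 in the knockdown, so the groups overlap.

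**Figure D1:**
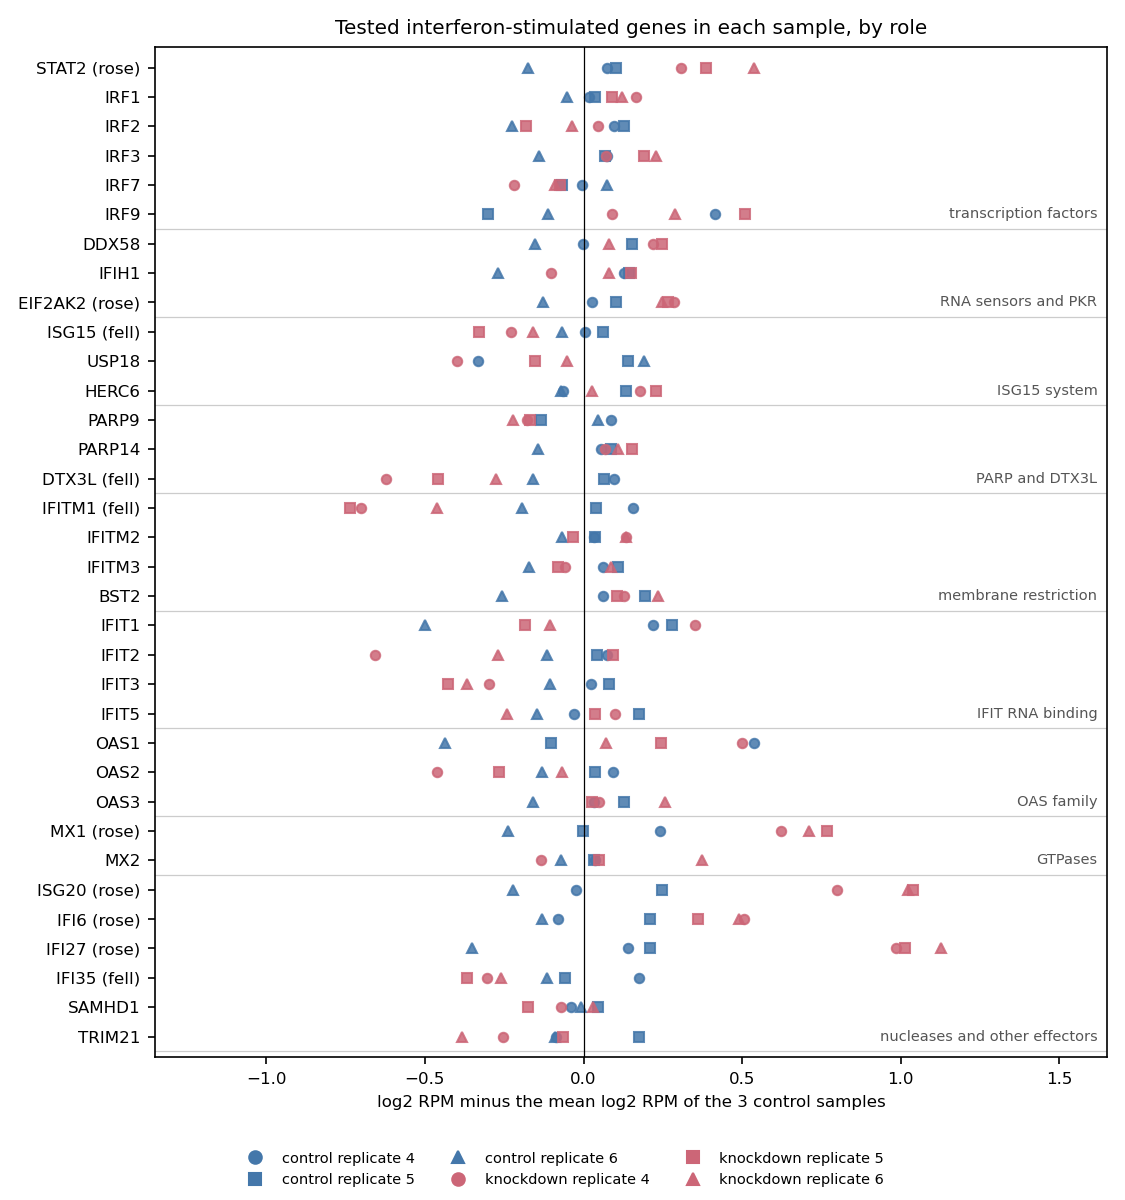
Each row is a tested member, grouped by role; the x axis is its log2 RPM in a sample minus the mean log2 RPM of the 3 control samples, with control samples in blue and knockdown samples in red. Red and blue points are mixed in most rows, and they separate widest for IFI27, ISG20, MX1 and IFITM1.

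**Figure D2:**
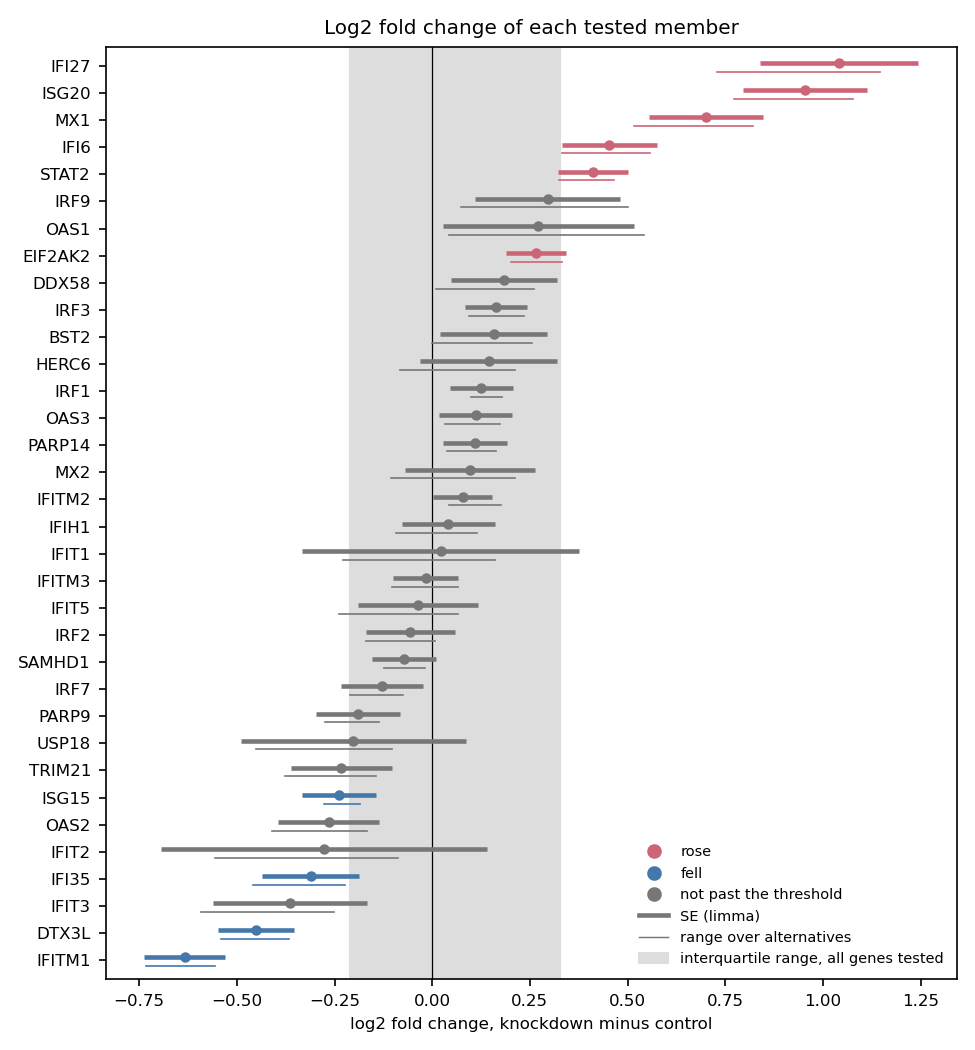
The log2 fold change of each of the 34 tested members is drawn with its limma SE (thick line) and its range over the alternative settings (thin line); the grey band is the interquartile range of all genes tested, from -0.21 to 0.33. Of the 10 coloured members, 5 rises lie above the band and the 4 falls below it, ISG15 (-0.24) only just, while EIF2AK2 (0.27) lies inside it.

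The steady level of the set was carried by a few genes. Divided by the exon length of each gene in GENCODE 29, which may differ from the gene models behind the table, the control level was 115 ± 4.65 RPM per kb for IFITM2 and 93.9 ± 9.45 for IFITM3 (SD, n = 3), both of which block virus entry at endosomal membranes. The control samples of these 2 genes did not overlap, but their order is uncertain because IFITM genes are near-copies of each other. IRF3, the factor that starts interferon production, had 37.5 ± 3.09 RPM per kb, IFITM1 28.4 ± 3.45 and the ubiquitin-like modifier ISG15 22.1 ± 0.974. STAT2 had 11.1 ± 1.13, IRF1 9.31 ± 0.297, IFI6 9.24 ± 1.22 and EIF2AK2 8.63 ± 0.686, and the last 3 do not differ beyond their spread. At the bottom of the order, IFIT1 and IFIT2 had 0.174 ± 0.0473 and 0.146 ± 0.0101 RPM per kb, and GBP2, OASL and GBP1 had 0.0964 ± 0.0281, 0.0647 ± 0.0328 and 0.0455 ± 0.0173.

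Most interferon ligands had no row, which is not a measured absence. Of 17 interferon symbols listed, IFNE, an epithelial type I interferon, was the one with a row, and its 6 values of 0.0950 to 0.442 RPM rest on 2 to 9 reads per sample; it was not tested. The receptor chains were present in every sample. IFNAR2, the high-affinity chain for type I interferon, had 16.4, 16.5 and 15.9 RPM in the control and 22.1, 22.05 and 24.1 in the knockdown, so every knockdown sample was above every control; it rose by 0.48 (SE 0.0934, limma adjusted p = 0.000251). Its partner IFNAR1 rose by 0.25, the interferon gamma chain IFNGR2 by 0.53 and IL10RB, shared by interferon lambda and IL-10 receptors, by 0.43. These 4 genes lie side by side on chromosome 21 (34602206 to 34851656, in positions as deposited, of a build that does not match hg38). Of the 60 other tested genes within 5 Mb of IFNAR2, 35 rose and 2 fell, with a median of 0.32. These 60 include IFNAR1, IFNGR2 and IL10RB, whose rises are thus counted again. The part of this regional difference in the receptor values was not tested. The chains encoded elsewhere did not pass: IFNGR1 had a log2 fold change of -0.22 and IFNLR1 of 0.27. Around IFNGR1, 3 of 30 neighbours rose and 14 fell, with a median of -0.22, and the median around IFNLR1 was 0.02. Among the kinases TYK2 rose by 0.29, on chromosome 19 where the neighbours' median was -0.01, while JAK1 (-0.04, SE 0.0894) and JAK2 (-0.07, SE 0.147) did not pass.

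STAT2, the transactivating part of ISGF3, was higher in the knockdown. STAT2 (chromosome 12, 56735381 to 56753940) had 39.6, 40.4 and 33.3 RPM in control replicates 4, 5 and 6 and 46.6, 49.2 and 54.7 in the knockdown. All knockdown values were above all control values, and the gene rose by 0.41 (SE 0.0905, limma adjusted p = 0.000878). Of its 162 neighbours within 5 Mb, 44 rose and 32 fell, with a median of 0.07. STAT3, which answers mainly to IL-6 family cytokines, fell by 0.25 on the log2 scale.

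IRF9, the DNA-binding part of ISGF3, had 4.43, 2.70 and 3.08 RPM in the control and 3.54, 4.74 and 4.06 in the knockdown. The groups overlapped and its log2 fold change of 0.29 (SE 0.187) did not pass (adjusted p = 0.217), but passed without control replicate 4 (0.50, limma adjusted p = 0.0402). The row of IRF9 lies within another gene's row on the same strand (mean 5.72 RPM), so reads could be shared. None of the other 4 interferon regulatory factors of the set passed. IRF1, an activator induced by interferon gamma, had 34.0 to 36.2 RPM in the control and 37.6 to 39.6 in the knockdown, with no overlap but a change of only 0.13 (SE 0.0815, adjusted p = 0.229). IRF3 differed by 0.16 (SE 0.0799, adjusted p = 0.108) and passed under 3 alternatives, median of ratios, quantile normalization and rescaling without mitochondrially encoded genes. IRF2, a repressor that competes with IRF1, had -0.06, and IRF7, which amplifies type I interferon production, had -0.13 with 12.2 to 13.5 RPM in the control and 11.0 to 12.2 in the knockdown.

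The RNA sensors of the set did not pass, while the kinase PKR was higher. DDX58 (RIG-I, which detects RNA with a triphosphate end) had a log2 fold change of 0.18 (SE 0.136) and IFIH1 (MDA5, which detects long double-stranded RNA) of 0.04 (SE 0.1196), and the groups overlapped in both. EIF2AK2, which encodes PKR, a kinase that halts translation on binding double-stranded RNA, had 90.1, 94.99 and 81.1 RPM in the control and 107.8, 106.4 and 105 in the knockdown. It rose by 0.27 (SE 0.0770, limma adjusted p = 0.00819) with no overlap between groups. EIF2AK2 lies on chromosome 2 (37326353 to 37384209), where 21 of the 37 other tested genes within 5 Mb rose and 1 fell, with a median of 0.36. Its own change is below this median, and without a variance trend it did not pass (adjusted p = 0.0579).

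Around these sensors, the genes that relay the signal went both ways. Of 21 tested genes for nucleic acid sensing and interferon induction, 6 rose (28.6%, against 21.9% of all genes) and 8 fell (38.1%, against 18.1%). Among the 6 is DHX58, a further RNA sensor, which went from 0.3155 RPM in the control to 0.857 in the knockdown (log2 fold change 1.52). Its mean passed the minimum of 0.491 RPM only through the knockdown, so these values are a description. IRF5, a regulatory factor downstream of Toll-like receptors, rose from 6.75 ± 0.741 to 15.02 ± 1.70 RPM (SD, n = 3), by 1.15 on the log2 scale (limma adjusted p = 1.10e-07). IKBKE, a kinase for IRF3 and IRF7, rose by 0.63 and the adaptor MYD88 by 0.40. IRF5 and MYD88 lie on stretches of chromosomes 7 and 3 where the neighbours' medians were 0.42 and 0.39, whereas the median around IKBKE was 0.09. The RNA helicases DHX9 and DHX36 had log2 fold changes of -0.35 each, and the adaptor TRAF3 of -0.33, and all 3 fell. Their neighbours' medians were -0.13 for DHX9, -0.29 for DHX36 and -0.02 for TRAF3.

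The brakes of the pathway also split. Of 11 negative regulators tested, 2 rose (18.2%, against 21.9% of all genes tested) and 5 fell (45.5%, against 18.1%). SOCS3, a feedback inhibitor of JAK kinases, had 8.15, 8.77 and 6.37 RPM in the control and 12.4, 11.7 and 13.7 in the knockdown and rose by 0.71 (neighbours' median 0.22), and CISH, of the same family, rose by 1.27 (neighbours' median 0.34). The phosphatases PTPN11 and PTPN1 fell, with log2 fold changes of -0.51 and -0.49, and so did the STAT inhibitors PIAS3 and PIAS1, with -0.42 and -0.31.

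In the ISG15 system, ISG15 was slightly lower. ISG15 (chromosome 1, 948803 to 949921) is a ubiquitin-like protein that is attached to other proteins and also secreted. It had 20.8, 21.6 and 19.8 RPM in the control and 17.7, 16.5 and 18.6 in the knockdown, with no overlap. The log2 fold change of -0.24 (SE 0.0950) passed narrowly (limma adjusted p = 0.0491), and the call was lost under 9 of 15 alternatives (adjusted p 0.00672 to 0.195). Its neighbours went the other way: of 104, 39 rose and 10 fell, with a median of 0.28. USP18, which strips ISG15 off and restrains the type I receptor, had 0.945 to 1.36 RPM in the control and 0.902 to 1.15 in the knockdown, on 19 to 32 reads a sample, and HERC6, of the ligase family that attaches ISG15, had 2.72 to 3.13 and 2.90 to 3.34. Neither passed, with log2 fold changes of -0.20 (SE 0.288) and 0.14 (SE 0.175). UBA7, the enzyme that activates ISG15 for transfer and is not among the 39, rose from 1.48 ± 0.583 to 4.67 ± 0.435 RPM (SD, n = 3), a log2 fold change of 1.74, on chromosome 3 where the neighbours' median was 0.34.

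DTX3L, PARP9 and PARP14 are neighbours on chromosome 3 (122246771 to 122449688). DTX3L is a ubiquitin ligase that works in a complex with PARP9, an ADP-ribosyltransferase family member, and PARP14 is a mono-ADP-ribosyltransferase linked to STAT signalling. DTX3L had 41.5, 40.5 and 34.7 RPM in the control and 25.2, 28.2 and 32.02 in the knockdown, with no overlap, and fell by 0.45 on the log2 scale (SE 0.0974, limma adjusted p = 0.000725). PARP9 had 13.6, 11.6 and 13.2 RPM in the control and 11.3, 11.3 and 10.9 in the knockdown; its groups did not overlap either, but the difference of -0.19 (SE 0.107) did not pass (adjusted p = 0.164). The rows of DTX3L and PARP9 overlap by 341 bases on opposite strands; the libraries were strand-specific, but the labels do not say whether counting used the strand. PARP14 had 50.4 to 59.2 RPM in the control and 58.4 to 61.9 in the knockdown, which overlap (0.11, SE 0.0817, adjusted p = 0.296). The log2 ratio of 2 genes within a sample cannot be moved by scaling between samples; 6 such pairs, picked after their values were seen, were compared between groups by exact two-sided permutation, whose lowest possible p with 3 against 3 samples is 0.1. The log2 ratio of DTX3L to PARP14 went from -0.52 ± 0.0355 to -1.08 ± 0.158 (SD, n = 3; exact permutation p = 0.1, adjusted 0.12), and that of DTX3L to PARP9 from 1.60 ± 0.202 to 1.34 ± 0.195 (exact permutation p = 0.2, adjusted 0.2).

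Among proteins that act at membranes, IFITM1 was lower and the other 3 did not pass. IFITM1 (chromosome 11, 313506 to 315273) blocks virus entry at the cell surface. It had 32.8, 30.2 and 25.7 RPM in the control and 18.1, 17.6 and 21.3 in the knockdown, which is 64.4% of control. Every knockdown value was below every control value, and this was the largest fall of the set (-0.63, SE 0.104, limma adjusted p = 3.89e-05). IFITM2 had 116 to 124.7 RPM in the control and 118.8 to 133.5 in the knockdown (log2 fold change 0.08, SE 0.0756), and IFITM3 had 100.7 to 122.3 and 107.2 to 120.5 (-0.02, SE 0.0824). The log2 ratio of IFITM1 to IFITM3 within samples went from -1.95 ± 0.0856 to -2.56 ± 0.0584 (SD, n = 3; exact permutation p = 0.1, adjusted 0.12). The IFITM2 row reaches over all 1768 bases of IFITM1 on the same strand, so reads of near-identical stretches may be split between them. Around IFITM1, 26 of 80 neighbours rose and 13 fell, with a median of 0.12. BST2 (tetherin), which holds budding virions on the cell, had 5.27 to 7.21 RPM in the control and 6.78 to 7.41 in the knockdown and did not pass (0.16, SE 0.138).

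The IFIT genes, whose proteins bind foreign RNA ends, lie together on chromosome 10 (91061712 to 91180759), and none of the 4 passed. IFIT3 had 2.55, 2.66 and 2.34 RPM in the control and 2.04, 1.87 and 1.95 in the knockdown, with no overlap; the difference of -0.36 (SE 0.198, adjusted p = 0.148) passed under quantile normalization and without a variance trend. IFIT1 had 0.552 to 0.948 RPM in the control and 0.688 to 0.997 in the knockdown (0.02, SE 0.354), and IFIT2 had 0.552 to 0.630 and 0.380 to 0.639 (-0.28, SE 0.418). With 8 to 26 reads a sample for these 2 genes, a change of the size seen for IFITM1 would not have been detectable with these errors. IFIT5, the better expressed member, had 4.29 to 5.36 and 4.01 to 5.08 RPM (-0.04, SE 0.154). The rows of IFIT1, IFIT2 and IFIT3 lie within that of LIPA on the opposite strand, which had a mean of 15.6 RPM.

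The OAS enzymes make the messenger 2-5A that activates RNase L, and none of the 3 tested passed. OAS3, the best expressed, had 30.4 to 37.0 RPM in the control and 34.6 to 40.6 in the knockdown (0.11, SE 0.0930). OAS2 had 9.27, 8.92 and 7.94 RPM in the control and 6.32, 7.22 and 8.29 in the knockdown, and its difference of -0.27 (SE 0.1296, adjusted p = 0.107) passed without control replicate 6 (-0.33, adjusted p = 0.0442) and under quantile normalization (-0.41, adjusted p = 0.00795). OAS1 had 1.32 to 2.59 and 1.87 to 2.52 RPM (0.27, SE 0.244). OASL, which lacks the enzymatic activity, had 0.0491 to 0.332 RPM over the 6 samples, or 1 to 7 reads, and was not tested.

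MX1 was higher in the knockdown and MX2 beside it was not. MX1 (chromosome 21, 42792231 to 42831142), a dynamin-like GTPase that traps viral nucleocapsids, had 5.21, 4.41 and 3.74 RPM in the control and 6.79, 7.52 and 7.22 in the knockdown. The groups were well separated, and MX1 rose by 0.70 (SE 0.146, limma adjusted p = 0.000510). MX2, its nuclear-pore-associated relative, had 3.85, 3.84 and 3.57 RPM in the control and 3.42, 3.88 and 4.85 in the knockdown (0.10, SE 0.166). The log2 ratio of MX1 to MX2 went from 0.23 ± 0.188 to 0.84 ± 0.231 (SD, n = 3; exact permutation p = 0.1, adjusted 0.12). Both lie in a stretch where 47 of 79 neighbours rose and 1 fell, with a median of 0.36, and the part of this regional difference in the MX1 value was not tested. The guanylate-binding proteins GBP1 and GBP2, typical interferon gamma targets, were close to the floor of 3 reads (0.105 to 0.147 RPM), with 0.0382 to 0.196 RPM for GBP1 and 0.142 to 0.306 for GBP2 over the 6 samples, and were not tested. Both were low in both groups.

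The remaining effectors held the largest rises. IFI27 (chromosome 14, 94571182 to 94583034), a small mitochondrial protein used as a blood marker of interferon activity, had 1.85, 1.94 and 1.32 RPM in the control and 3.32, 3.39 and 3.67 in the knockdown. It rose by 1.04 (SE 0.203, limma adjusted p = 0.000274), to 203% of control, on 31 to 96 reads a sample, in a stretch where 4 of 59 neighbours rose and 15 fell. ISG20 (chromosome 15, 89179384 to 89199715), an exonuclease that degrades single-stranded RNA, had 3.22, 3.89 and 2.80 RPM in the control and 5.70, 6.73 and 6.65 in the knockdown. It rose by 0.95 (SE 0.158, limma adjusted p = 4.48e-05), with a neighbours' median of 0.03. IFI6 (chromosome 1, 27992572 to 27998730), a relative of IFI27 that blocks flavivirus replication at the endoplasmic reticulum, had 7.52, 9.20 and 7.26 RPM in the control and 11.3, 10.2 and 11.2 in the knockdown. It rose by 0.45 (SE 0.121, limma adjusted p = 0.00461), with a neighbours' median of 0.04. In all 3 genes the lowest knockdown value was above the highest control value. IFI35, a cytoplasmic partner of NMI, had 9.87, 8.39 and 8.07 RPM in the control and 7.08, 6.78 and 7.30 in the knockdown; the fall of 0.31 on the log2 scale (SE 0.124, limma adjusted p = 0.0493) was lost under 11 of 15 alternatives (adjusted p 0.00234 to 0.237). SAMHD1, which depletes nucleotides needed by retroviruses, did not pass (47.4 to 50.2 RPM in the control, 43.1 to 49.7 in the knockdown, -0.07, SE 0.0817). TRIM21, an antibody receptor and ubiquitin ligase of the cytosol, had 7.82 to 9.39 and 6.38 to 7.96 RPM (-0.23, SE 0.130, adjusted p = 0.160), and passed under quantile normalization only.

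**Figure D3:**
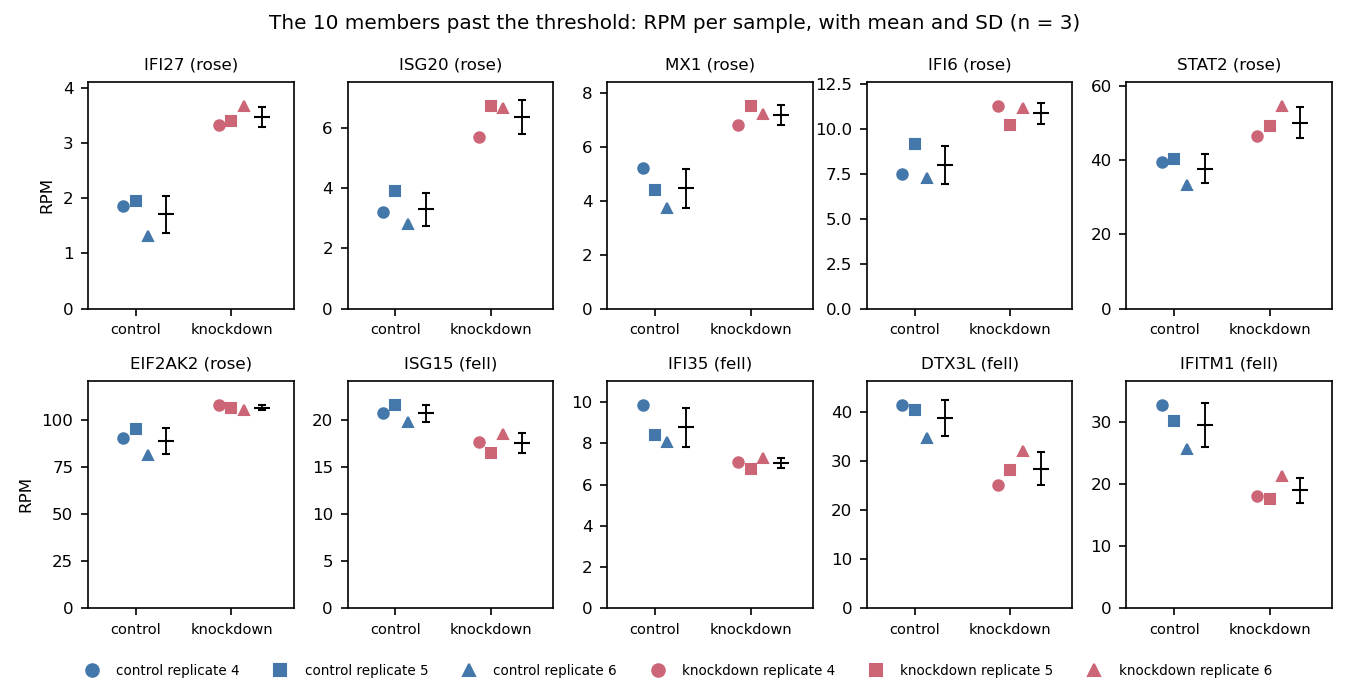
RPM per sample (y axis from 0) for the 10 members past the threshold, with points for each replicate and the mean with its SD (n = 3) beside each group. The groups do not overlap in any of the 10 panels; relative to its level the widest gap is that of IFI27, from 1.94 RPM in the highest control to 3.32 in the lowest knockdown sample.

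Neighbouring genes moved with a minority of these changes. The median log2 fold change of the other tested genes within 5 Mb, members left out, was above 0.2 for 4 tested members, of which MX1 and EIF2AK2 rose, ISG15 fell and MX2 passed in neither direction. Of the 30 tested members elsewhere, 4 rose (IFI27, ISG20, IFI6 and STAT2) and 3 fell (IFITM1, DTX3L and IFI35). Over all genes tested, 21.9% rose and 18.1% fell, so these counts do not set the members apart.

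**Figure D4:**
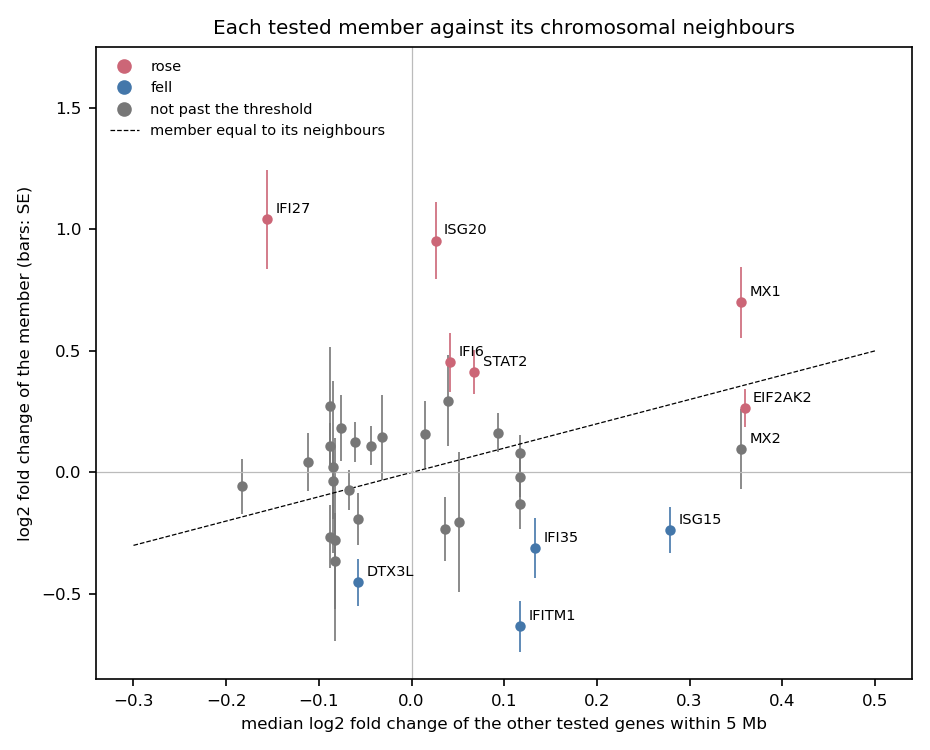
The x axis is the median log2 fold change of the other tested genes within 5 Mb of a member, and the y axis is the member's own log2 fold change with its SE. IFI27, ISG20, MX1, IFI6 and STAT2 lie far above the dashed line of equal change, and EIF2AK2 lies just below it. IFITM1 and ISG15 fell where their neighbours had medians of 0.12 and 0.28.

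Other interferon-induced genes outside the set also went both ways. Of 61 tested, 11 were past the threshold upward and 15 downward (median 0.06), so 42.6% changed beside 40.0% of all genes. Over all 104 tested pathway genes, 24 rose (23.1%, against 21.9% of all genes) and 30 fell (28.85%, against 18.1%). Their median was 0.00, and the 24 include DHX58. After rescaling without mitochondrially encoded genes, 34 pathway genes rose and 29 fell, beside 4643 and 2885 of the 16351 genes tested. CIITA, the transactivator of MHC class II genes, rose from 0.592 ± 0.162 to 2.53 ± 0.503 RPM (SD, n = 3), by 2.11 on the log2 scale (SE 0.290, limma adjusted p = 4.50e-06), with a neighbours' median of -0.09. C19orf66, an inhibitor of ribosomal frameshifting, rose by 0.75, with a neighbours' median of -0.00322, and SHISA5, a p53-induced endoplasmic reticulum protein, rose by 0.59 on chromosome 3, with a neighbours' median of 0.33. IFI30, a lysosomal thiol reductase of antigen processing, fell from 4.91 ± 0.908 to 1.70 ± 0.320 RPM (SD, n = 3), a log2 fold change of -1.53, and WARS, the tryptophan tRNA synthetase induced by interferon gamma, had -0.54.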

How the data were processed

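RNA sequencing of 6 SW480 samples (3 knockdown, 3 control) was compared. The authors deposited a table of log2 values, which the values show to be log2 of RPM plus 1e-04; Partek, Bowtie and hg38 are named in the submitters' processing notes, and the counting method is not given in the sources used here. Positions are the table's own: its largest end on chromosome 1 is 249214146, beyond 248937043 for GENCODE 29 on GRCh38. A symbol at several loci (1192 of 22258) had identical values and was used once. The common step of low values gave the value of 1 read. Only 78.2% to 79.4% of low values were whole to within 0.02 reads (62.6% to 64.3% of higher values), and no count model was run.

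A minimum mean of 0.491 RPM was set, and the remaining genes went into limma 3.58.1 (R 4.3.3; lmFit, eBayes with a trend, two-sided, Benjamini-Hochberg over 16351 genes, adjusted p under 0.05), checked on simulated data. Alternatives changed the filter, offset, scaling, variance prior, replicate block and each sample in turn. The members and lists were chosen with earlier results of these data known. Named are all members, ALDH1B1 and any ligand, receptor, kinase or STAT gene. Up to 6 genes of each other pathway list were named by smallest adjusted p. Gene pairs, class II genes and DHX58 were named after their values were seen. Promoters are RefSeq's (GRCh38.p14). A few items are not reported here.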

Additional observations from a re-analysis of the deposited data

How the results depend on the processing

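IFITM1, DTX3L, IFI27, ISG20, MX1, IFI6 and STAT2 kept their direction and their call under all 15 alternatives, and EIF2AK2 under 14. ISG15 and IFI35 lost theirs under 9 and 11. Without a filter, with 1 RPM added before the log and with the replicate block the members that fell numbered 2 in place of 4, while quantile normalization gave 8. Among all genes the falls in these 4 settings were 2659, 3028, 2322 and 3920, against 2960. Leaving out each sample in turn gave 2 to 5 members that fell, with 5 only without control replicate 6 and 2 without any other sample, and 6 to 7 that rose. The falls among all genes shifted too, to 3719 without control replicate 6 and to 2018 to 2802 without any other sample. Rises among all genes were 2921 to 3533 in these runs. Rescaling to reads outside mitochondrially encoded genes, added after the data were seen, raised the rises among members from 6 to 10, with 3 falls, and those among all genes from 3588 to 4643, with 2885 falls. The cause of these differences was not tested. Of the 24 tested members that did not pass, 15 passed under none of the alternatives run for them; with a minimum mean 5 times as high, IFIT1, IFIT2, IFIT3, OAS1 and USP18 gave no value. The replicate block, for numbers that did not pair the samples, called 6 rises and 2 falls among members, and 3277 and 2322 among all genes against 3588 and 2960. Same-numbered samples had correlations of -0.112, -0.132 and -0.218 between their deviations from group means across genes, and no sample correlated best with its own number. The median of all genes moved most, by 0.0530 on the log2 scale, on rescaling without mitochondrially encoded genes. Among all genes, rises outnumbered falls in most settings, but not under quantile normalization (3469 and 3920) or without control replicate 6 (3145 and 3719). Few reads limit what can be said of IFIT1, IFIT2, USP18 and OAS1, and of the untested OASL, GBP1 and GBP2.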

Other observations

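Several genes that CIITA is known to switch on were also higher; they were named after their values were seen. CD74, the invariant chain that guides MHC class II molecules, had 8.61, 8.92 and 7.22 RPM in the control and 21.6, 24.4 and 28.7 in the knockdown, so the groups were far apart, and it rose by 1.59 (SE 0.117, limma adjusted p = 3.00e-10). HLA-DRA, a class II alpha chain, had 0.175, 0.0949 and 0.170 RPM in the control, near the floor, and 1.33, 1.18 and 0.956 in the knockdown; its mean passed the minimum of 0.491 RPM only through the knockdown, so these values are a description. HLA-DQB1 and HLA-DMA, the latter a peptide-loading chain, rose by 0.61 and 0.52. Of the 9 genes made up of CD74 and the HLA-D symbols, 6 were tested; CD74, HLA-DQB1 and HLA-DMA rose, beside 21.9% of all genes tested, and none of the 6 fell (18.1% of all genes); HLA-DMB and HLA-DOB did not pass. The class II promoter factors RFX5, RFXANK and RFXAP did not pass, with log2 fold changes of -0.21, -0.10 and 0.22. Leukocyte markers, whose summed level was 27.2 to 35.4 RPM in the control and 49.7 to 51.9 in the knockdown, moved in the same samples. Of 5 tested, 3 rose (21.9% of all genes tested rose), LAPTM5 by 2.32, CORO1A by 0.65 and NCAM1 by 0.59 on the log2 scale. CD68 went from 1.17 RPM in the control to 0.311 in the knockdown. Its mean passed the minimum of 0.491 RPM only through the control, so these values are a description. The part of leukocyte markers in the class II values was not tested.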
